A study of Mus musculus with 32 samples.

Results

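The collagen genes of the mouse were followed across 32 neurosphere cultures grown from experimental brain tumours. A gene was counted as a collagen gene where its only symbol in the array annotation read Col, a number, the letter a and a number, whatever its values. This gave 44 of 19938 measured genes, of which 11 encode chains of fibrillar collagens, 6 encode the chains of type IV collagen of basement membranes and 27 encode chains of the other types.

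Collagens are extracellular proteins built from 3 alpha chains wound into a triple helix. Fibrillar types such as I, II, III, V and XI assemble into cross-linked fibrils, type IV forms the sheet-like network of basement membranes, type VI forms beaded filaments close to the cell surface, type VIII forms short-chain networks, and type XVIII is a heparan sulfate proteoglycan of basement membranes from which the fragment endostatin is released. In the brain, collagens are scarce in the tissue between the cells and are concentrated in vessel walls and meninges. New chains are hydroxylated in the endoplasmic reticulum, folded with the help of the chaperone HSP47, secreted, trimmed at their ends and cross-linked by lysyl oxidases.

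All cultures shared 1 background. Neurospheres raised from the wall of the lateral ventricle after birth, deficient for p53 (strain B6;129-Trp53tm1Brd), were given oncogenes and transplanted into the brain. Tumour cells that carried the transgene were then collected by flow cytometry and cultured as spheres. HRAS (n = 5) and HRAS+Bmi1 (n = 2) gave gliomas. MYC (n = 6), MYC+Ezh2 (n = 5) and MYC+Bmi1 (n = 3) gave primitive neuroectodermal tumours (PNET). HRAS+MYC given together (n = 7) gave tumours like atypical teratoid/rhabdoid tumour. In the remaining groups the oncogenes came in sequence. MYC was added to sphere cells of an HRAS glioma (HRAS then MYC, n = 2), or HRAS to sphere cells of a MYC PNET (MYC then HRAS, n = 2), and the cells formed secondary tumours. Against the other groups, the added oncogene or its order cannot be told apart from growth as a secondary tumour. HRAS signals to MAP kinases from the cell membrane, MYC drives growth as a transcription factor, and Bmi1 and Ezh2 are Polycomb proteins. The promoter that drove the transgenes is not given in the sources used here. The labels do not say whether arrays of a group came from separate tumours or animals, nor from which tumour the cells for the secondary tumours were taken, so the p-values measure the spread between these arrays. These were cultured and sorted tumour cells, and no normal neurospheres were among them. In such bulk cultures, fewer cells of a type and less RNA per cell cannot be told apart.

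Values are log2 expression from 1 probe set per gene, and levels are compared between arrays for the same gene and never between genes. Array medians lay between 5.59 and 5.79, and pairs of arrays within a group correlated at 0.940 or above over all genes. Because the arrays carry no detection calls here, a level alone was not read as presence or absence of a cell type, and each marker was compared between arrays. Over the 32 arrays the fibroblast marker Dpt ran from 3.00 to 4.06, the endothelial marker Emcn from 3.26 to 4.31 and the microglial marker Aif1 from 4.13 to 4.68. These were among the flatter markers of their lists. Pdgfra, Cd68 and Flt1 varied widely, and their values are given beside the results they moved with. Dcn (3.84 to 6.77), Pecam1 (4.75 to 7.50), Pdgfrb (4.76 to 7.71) and Anpep (4.13 to 8.20) varied widely too. Of the 7 neural stem markers, Nes had the narrowest range (8.27 to 11.75). Sox9 (6.75 to 10.79), Olig2 (4.37 to 10.57), Fabp7 (4.05 to 12.23), Pax6 (5.60 to 9.67) and Prom1 (4.52 to 8.44) varied widely. MYC replicates 4 and 5 stood apart, with Sox2 at 4.85 and 6.62 where every other array was at 9.62 or above and Olig2 at 5.02 and 5.17 where the other MYC cultures were at 9.49 or above. Comparisons with the MYC group were therefore also made without both.

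Upstream sequences are shown first for 4 collagen genes that were high together in the HRAS gliomas (Col3a1, Col18a1, Col8a1 and Col6a1) and for Col1a2, which passed no comparison. Each line gives the 250 bases before the annotated start, 5′ to 3′ in the direction of the gene, from RefSeq on build GRCm38.p6. They were searched on both strands for TATAAA (found near some starts), CCAAT (bound by NF-Y), GGGCGG (a GC box) and TGANTCA (an AP-1 element), and capitals mark every match. A match on the opposite strand is in reverse complement, so that CCAAT there is printed as ATTGG and a GC box as CCGCCC.
Col3a1: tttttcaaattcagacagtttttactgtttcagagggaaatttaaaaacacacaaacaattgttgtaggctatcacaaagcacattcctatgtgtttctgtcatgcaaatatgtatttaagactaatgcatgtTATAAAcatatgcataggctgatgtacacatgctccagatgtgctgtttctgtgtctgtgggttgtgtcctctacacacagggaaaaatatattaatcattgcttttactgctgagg
Col18a1: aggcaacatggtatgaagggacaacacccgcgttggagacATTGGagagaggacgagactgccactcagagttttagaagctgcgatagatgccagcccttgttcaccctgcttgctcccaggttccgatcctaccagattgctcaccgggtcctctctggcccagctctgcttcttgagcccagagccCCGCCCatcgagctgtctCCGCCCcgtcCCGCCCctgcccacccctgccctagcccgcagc
Col8a1: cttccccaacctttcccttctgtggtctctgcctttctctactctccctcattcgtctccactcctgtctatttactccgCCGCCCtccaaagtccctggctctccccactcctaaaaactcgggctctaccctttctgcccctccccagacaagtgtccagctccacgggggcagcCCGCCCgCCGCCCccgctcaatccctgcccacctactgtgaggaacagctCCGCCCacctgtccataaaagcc
Col6a1: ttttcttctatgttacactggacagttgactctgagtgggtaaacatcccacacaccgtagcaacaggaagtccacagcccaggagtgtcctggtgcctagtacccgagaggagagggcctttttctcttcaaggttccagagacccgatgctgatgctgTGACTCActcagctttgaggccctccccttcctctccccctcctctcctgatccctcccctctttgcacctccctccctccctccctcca
Col1a2: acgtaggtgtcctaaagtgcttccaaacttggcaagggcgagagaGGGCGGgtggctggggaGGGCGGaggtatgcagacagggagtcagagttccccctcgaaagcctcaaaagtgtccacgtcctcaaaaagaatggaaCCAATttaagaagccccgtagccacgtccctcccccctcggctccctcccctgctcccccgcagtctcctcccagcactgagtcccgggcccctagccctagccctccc

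The Col3a1 stretch lies at chr1:45311288-45311537 on the plus strand, Col18a1 at chr10:77166531-77166780, Col8a1 at chr16:57754738-57754987 and Col6a1 at chr10:76726045-76726294, all on the minus strand, and Col1a2 at chr6:4505368-4505617 on the plus strand. No motif was found in all 4 of the genes shown that were high together, though Col18a1 and Col8a1 both held GC boxes. Col4a5, also high in the HRAS gliomas but not shown, held both GGGCGG and CCAAT. Col3a1 held a TATAAA whose last base lay 112 bases before the start and no GC box. Col18a1 held 3 GC boxes and 1 CCAAT, Col8a1 held 4 GC boxes, and Col6a1 held 1 AP-1 element, TGACTCA, ending 84 bases before the start. Col1a2 held 2 GC boxes and 1 CCAAT. Windows of this length were present for 35 of the 44 collagen genes. GGGCGG was found in 21 of these 35 (60.0%) against 32.9% of the 27025 genes with a window, TATAAA in 5 (14.3%) against 13.0%, CCAAT in 12 (34.3%) against 34.5%, and TGANTCA in 1 (2.86%) against 6.87%. The 27025 were not limited to protein-coding genes, which the collagen genes are, and the effect of this on the shares was not tested. A match is a description of letters and not a bound site.

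Of the 44 collagen genes, 14 (31.8%) had group means that spanned more than 1 log2 unit across the 8 groups, near the 31.2% of all genes. By class it was 4 of 6 for the type IV chains, 4 of 11 for the fibrillar chains and 6 of 27 for the rest. Col3a1 had the widest span, 5.60 log2 units from the MYC group to the HRAS then MYC group, followed by Col18a1 with 4.27 and Col6a3 with 2.96. In the comparisons between groups, 23 collagen genes passed in at least 1 of 11 comparisons (limma, 2-sided, adjusted p under 0.05 over 19938 genes) and 21 passed in none. Those 21 were 5 fibrillar genes, among them Col1a2 and Col2a1, the type IV gene Col4a3, and 15 others, among them all 4 genes of transmembrane collagens (Col13a1, Col17a1, Col23a1 and Col25a1). Their group means spanned between 0.19 (Col4a3) and 1.00 (Col28a1), with 0.48 (Col26a1) next below Col28a1. At least 1 group mean of 6 or more was found for 33 of the 44 genes (75.0%, against 61.7% of all genes). A flat low value was not read as expression.

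**Figure D1:**
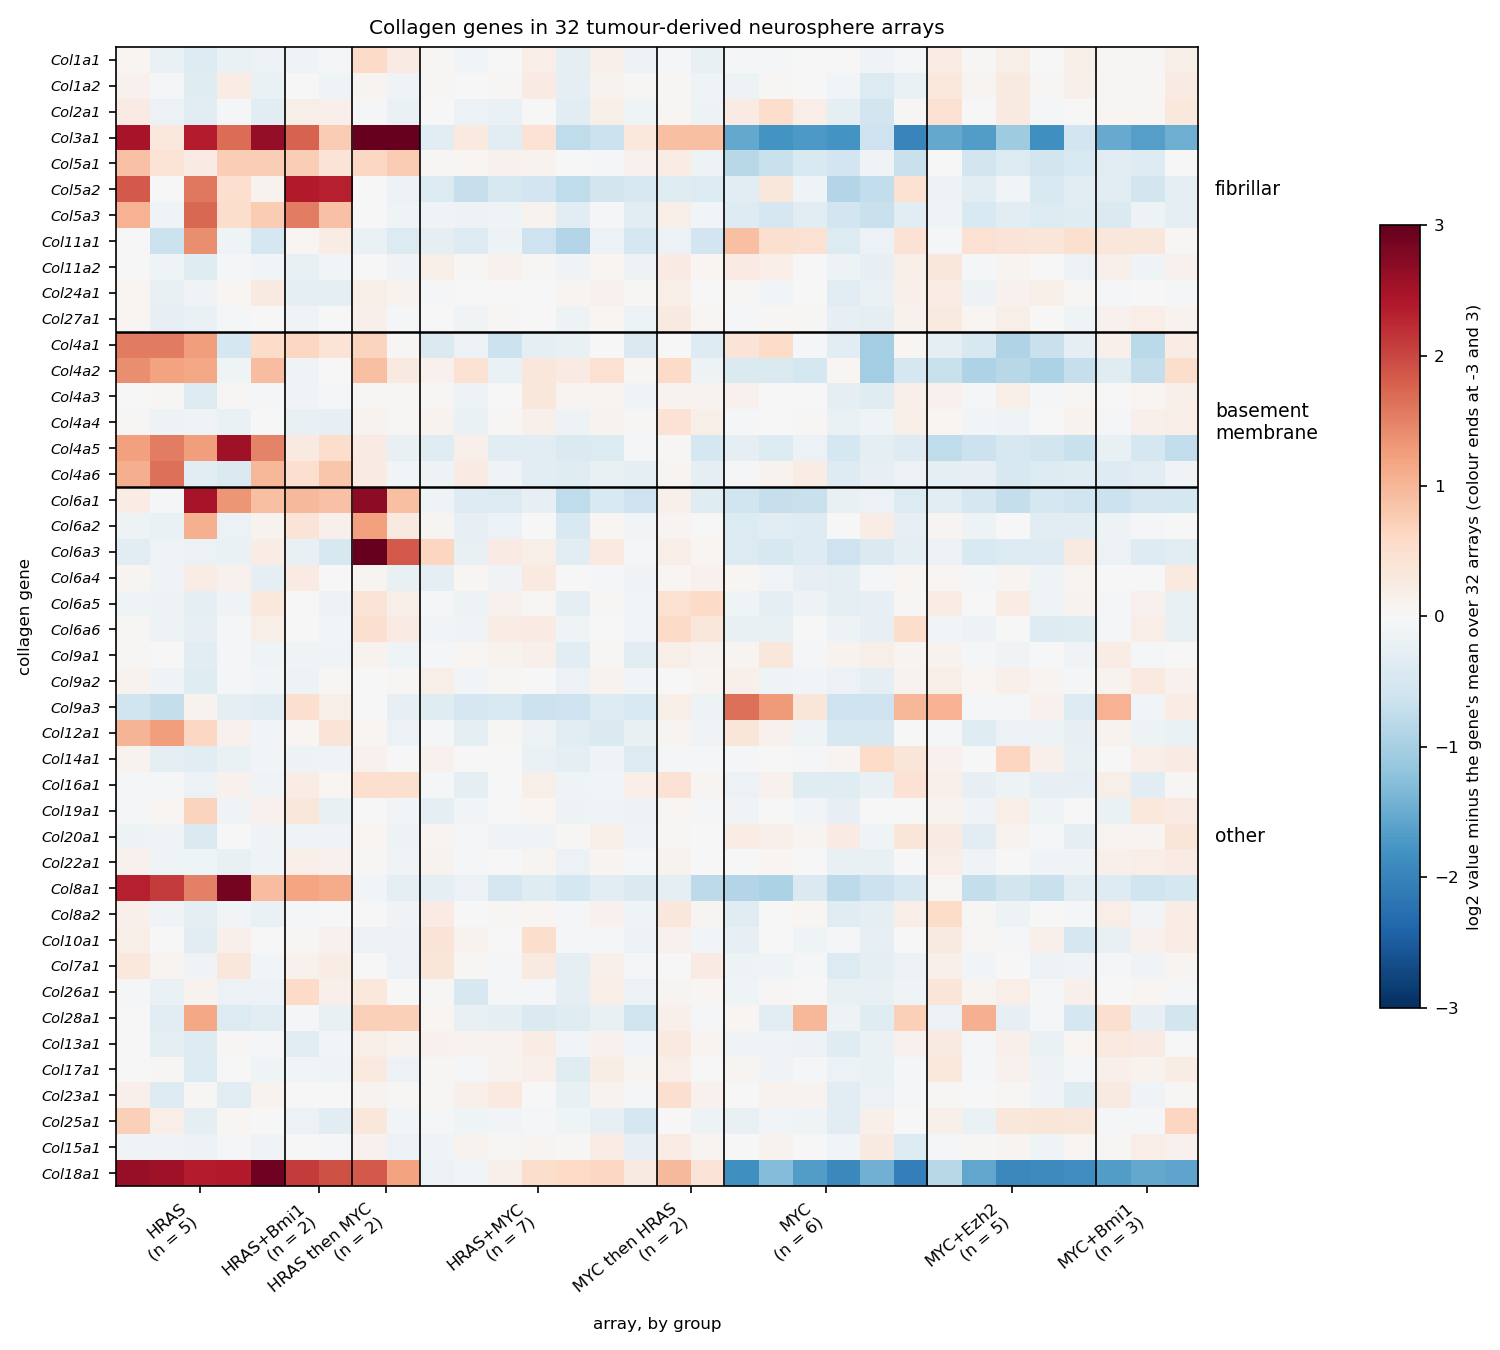
Each row is 1 of the 44 collagen genes, each column 1 of the 32 arrays ordered by group, and the colour is the log2 value minus the gene's mean over all arrays, ending at -3 and 3. Col3a1, Col8a1 and Col18a1 stand out as high in the HRAS gliomas, Col3a1 and Col6a3 in HRAS then MYC, and most of the lower rows are pale in every group.

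HRAS gliomas held more RNA of a set of collagen genes than MYC PNETs, led by Col18a1, Col3a1, Col8a1 and Col4a5. Among the 44 genes, 13 were higher, where 15.4% of all genes were called higher, and 2 were lower, where 18.0% of all genes were. By class, 4 of 6 type IV chains rose with a median difference over the class of 0.82, 4 of 11 fibrillar chains rose (median 0.08), and 5 of the 27 others rose and 2 fell (median 0.03), beside a median of -0.03 over all genes. Of these 15 calls, 8 remained when only these groups were fitted, and these 8 passed in every alternative setting tried.

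Col18a1 separated the groups most widely. Its values in the 5 HRAS cultures were 10.68, 10.62, 10.42, 10.44 and 10.97. In the MYC cultures they ran from 6.01 to 6.75 with a median of 6.30. No HRAS array came near a MYC array, and the difference was 4.27 ± 0.190 (SE), 19.3-fold (limma adjusted p = 8.57e-16). The other gene of the multiplexin class, Col15a1, had means of 5.77 and 5.86 and did not pass.

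Among the fibrillar genes, Col3a1 encodes the single chain of type III collagen, which forms fibrils in vessels and soft tissue. Its values were 10.19, 8.03, 10.05, 9.38 and 10.35 in the HRAS cultures and 6.16, 5.92, 5.98, 5.92, 7.09 and 5.72 in the MYC cultures. Replicate 2 was the lowest HRAS culture and MYC replicate 5 the highest MYC culture, and the groups did not overlap. The difference was 3.47 ± 0.330, 11.1-fold (adjusted p = 3.28e-09). The 3 type V chains, which nucleate fibrils and set their width, rose with smaller differences. Col5a1 was 8.03, 7.54, 7.38, 7.88 and 7.87 in the HRAS cultures against 6.30 to 7.04 in the MYC cultures (difference 1.15 ± 0.129, adjusted p = 5.72e-08). Col5a3 was 7.58, 6.45, 8.26, 7.07 and 7.31 against 5.87 to 6.23 (1.25 ± 0.185, adjusted p = 4.71e-06). Neither gene's groups overlapped. Col5a2 was 7.58, 5.75, 7.33, 6.25 and 5.84 against 4.87 to 6.19, which did overlap, and its difference of 1.02 ± 0.254 (adjusted p = 0.0022) missed the threshold when only these 2 groups were fitted (adjusted p = 0.0716). Col5a2 and Col3a1 are neighbours on chromosome 1 with no protein-coding gene between them in RefSeq, yet their order over the HRAS cultures was not the same, since replicate 5 was the highest for Col3a1 and near the lowest for Col5a2.

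The chains of type I collagen, the main fibrillar collagen of skin and bone, did not follow Col3a1. Col1a1 was 6.64, 6.39, 6.18, 6.38 and 6.41 in the HRAS cultures and 6.49 to 6.59 in the MYC cultures, a difference of -0.14 ± 0.0863 (adjusted p = 0.24). Col1a2 was 6.53, 6.36, 6.03, 6.63 and 6.19 against 5.99 to 6.42, a difference of 0.08 ± 0.104 (adjusted p = 0.623). The groups overlapped for both genes.

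**Figure D2:**
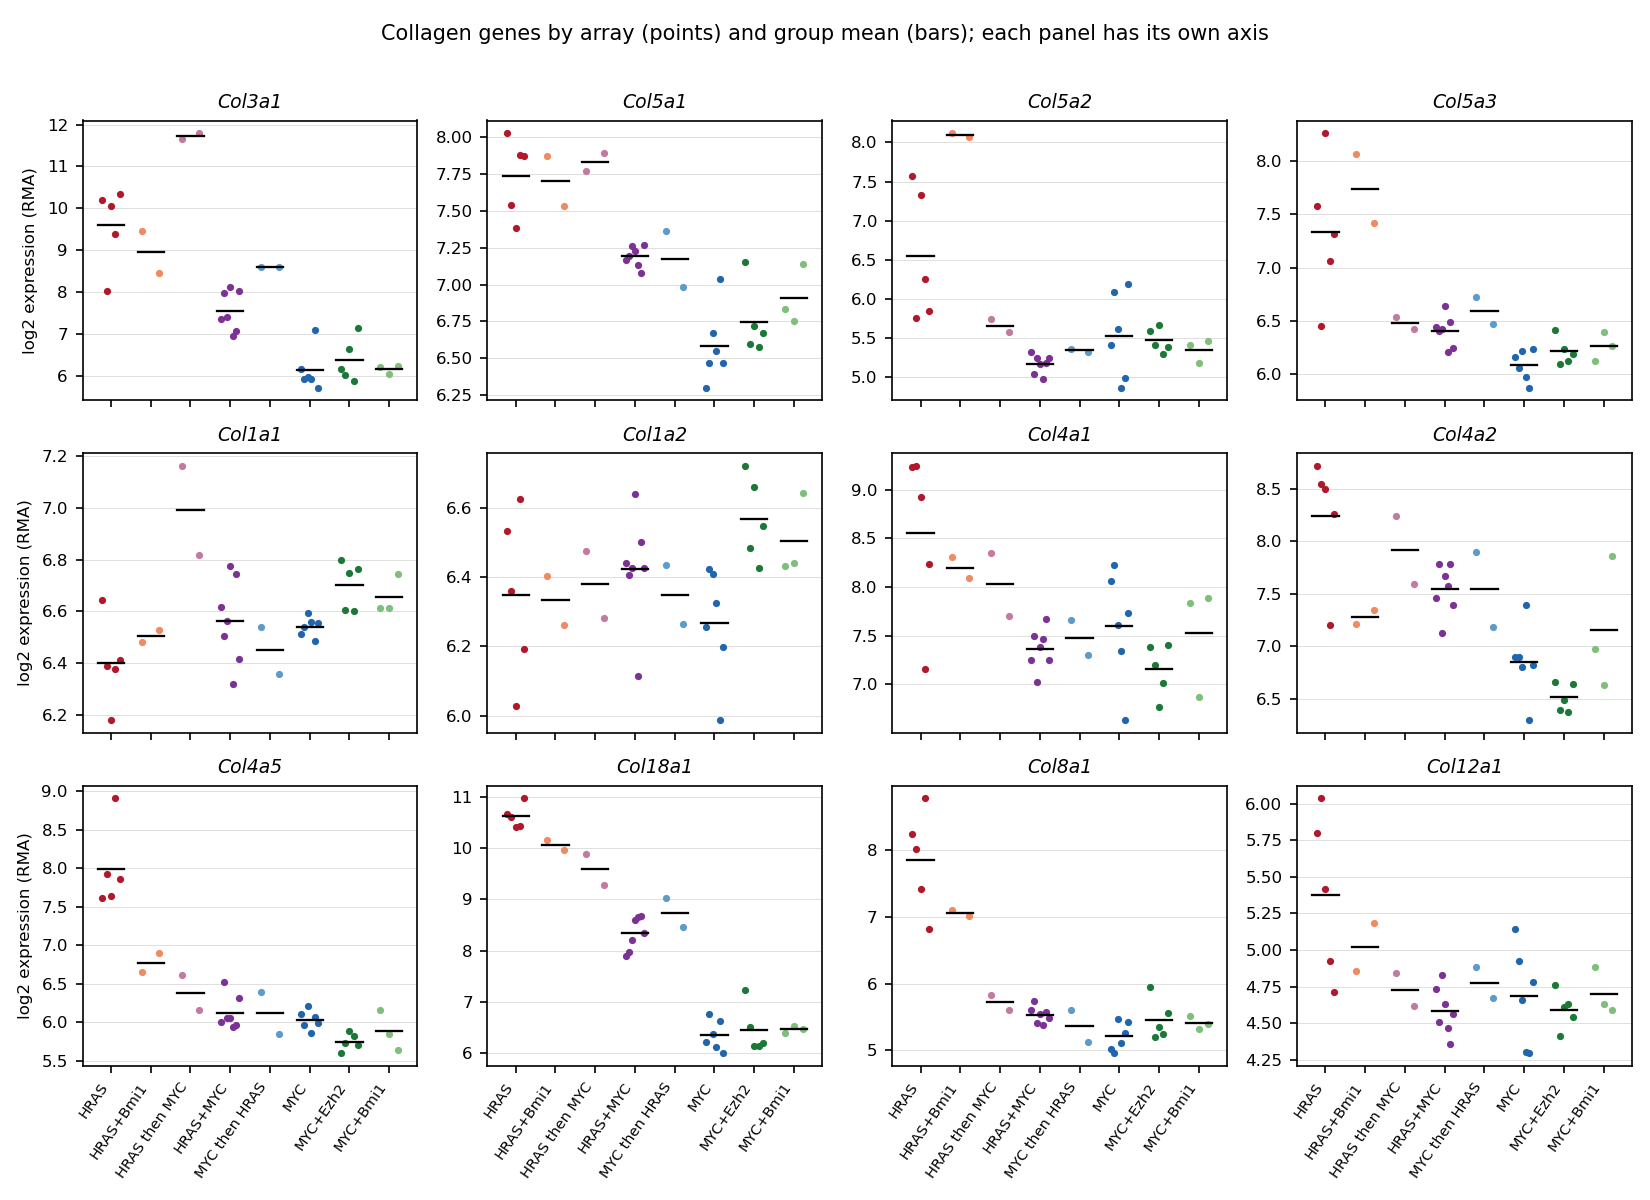
Log2 expression of 12 collagen genes, with 1 point per array and a bar at each group mean, on a separate vertical axis for each gene. Col18a1 and Col3a1 fall from 10.62 and 9.60 in HRAS to 8.34 and 7.56 in HRAS+MYC and 6.35 and 6.13 in MYC, Col5a2 is highest in HRAS+Bmi1, and the axes of Col1a1 and Col1a2 span about 1 log2 unit or less.

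The type IV genes lie in head-to-head pairs that are transcribed away from each other, and Col4a1 and Col4a2 sit so close that their 300-base windows around the starts share 78 bases. The alpha-1 and alpha-2 chains form the common basement membrane heterotrimer, and the alpha-5 and alpha-6 chains form a minor one. Col4a5 was 7.61, 7.92, 7.63, 8.91 and 7.87 in the HRAS cultures and 5.86 to 6.21 in the MYC cultures, without overlap, and the difference was 1.95 ± 0.169, 3.87-fold (adjusted p = 5.36e-10). Col4a2 was 8.72, 8.55, 8.50, 7.20 and 8.25 against 6.29 to 7.39, with overlap, and rose by 1.39 ± 0.231 (adjusted p = 2.31e-05). Col4a1 was 9.23, 9.24, 8.92, 7.16 and 8.23 against 6.63 to 8.23 and rose by 0.95 ± 0.295 (adjusted p = 0.0123). HRAS replicate 4 was the lowest HRAS culture for Col4a1 and Col4a2 and the highest for Col4a5. The call for Col4a1 was lost without HRAS replicate 1 (adjusted p = 0.0514), without HRAS replicate 2 (0.0512), without MYC replicates 4 and 5 together (0.106) and with only these groups fitted (0.106).

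Col4a6 varied most within the gliomas. It was 6.81, 7.39 and 6.73 in HRAS replicates 1, 2 and 5 but 5.40 and 5.29 in replicates 3 and 4, inside the range of the MYC cultures (5.34 to 5.96). Its difference of 0.68 ± 0.244 (adjusted p = 0.0319) was lost in 8 of the settings tried, among them leaving out HRAS replicate 1, 2 or 5 or MYC replicate 4, 5 or 6, with adjusted p up to 0.201. Col4a3 and Col4a4, whose chains join alpha-5 in the kidney filter, differed by -0.03 and -0.06 and did not pass.

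Among the other types, Col8a1 encodes a chain of the short-chain type VIII collagen made by vessel wall and corneal endothelial cells. It was 8.24, 8.02, 7.42, 8.78 and 6.83 in the HRAS cultures against 4.96 to 5.46 in the MYC cultures, a difference of 2.65 ± 0.211, 6.28-fold (adjusted p = 1.12e-10). Even the lowest HRAS culture lay above every MYC culture. Col8a2, its partner chain, had means of 5.57 and 5.54. Col6a1, a chain of the type VI filaments, was 7.42, 7.15, 9.66, 8.51 and 8.10 against 6.49 to 7.03, a difference of 1.43 ± 0.296 (adjusted p = 0.000339) with no overlap but a wide spread. Its partners Col6a2 (6.52, 6.47, 7.75, 6.51 and 6.78) and Col6a3 (5.73, 5.93, 5.88, 5.85 and 6.29) had differences of 0.31 ± 0.185 and 0.32 ± 0.181 that did not pass (adjusted p = 0.214 and 0.194).

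HRAS replicate 3 was the highest HRAS culture for Col6a1, Col6a2, Col5a3, Col11a1 (7.70 against 5.65 to 6.30) and Col28a1 (6.74 against 5.18 to 5.60). In that culture Dcn, a proteoglycan gene on the fibroblast list, was 6.77 against 4.39 to 4.58 in the other HRAS cultures, and Pdgfrb, a pericyte marker, was 6.69 against 5.07 to 5.57. Other genes on the same lists went the other way, since Pi16, Kcnj8, Abcc9, Anpep and Myh11 were at their lowest HRAS value there. Neural genes set this culture apart as well. Map2 was 9.99 against 5.20 to 6.18, Fabp7 was 9.89 against 4.17 to 4.60, Olig2 was 8.94 against 4.37 to 6.51 and Tubb3 was 8.08 against 5.72 to 6.31. On the first principal component of all genes it lay at -22.6, where the other HRAS cultures lay between -57.8 and -45.3. The part of these differences in the collagen values was not tested. Without this culture Col6a1 still passed.

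Smaller differences were found for Col12a1 (0.69 ± 0.179) and Col7a1 (0.31 ± 0.103), which were higher in HRAS, and for Col9a3 (-0.88 ± 0.316) and Col20a1 (-0.32 ± 0.104), which were lower. Type XII and type XX collagens and type IX, to which Col9a3 contributes the alpha-3 chain, sit on fibril surfaces, and type VII anchors basement membranes. All 4 missed the threshold when only these groups were fitted (adjusted p = 0.065 for Col12a1, 0.0615 for Col7a1, 0.153 for Col9a3 and 0.0598 for Col20a1). Col7a1 also missed it without HRAS replicate 1 or 4 or MYC replicate 4. Col9a3 also missed it when replicate 1, 2 or 5 of the HRAS group or 1, 2 or 6 of the MYC group was left out, and Col20a1 without HRAS replicate 3. Col9a3 varied widely within the MYC group, from 6.46 and 6.47 in replicates 4 and 5 to 8.74 in replicate 1.

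The marker lists moved in part with this comparison. Of 5 fibroblast markers, Dcn passed and rose by 0.92 (adjusted p = 0.103 with only these groups fitted), and Pdgfra, which glial precursors also express, was 8.56 to 10.22 in HRAS and 5.51 to 10.76 in MYC cultures and did not pass. Of 7 endothelial markers, Flt1 (6.34 to 9.06 against 5.46 to 5.74) and Tek rose, and of 7 pericyte and smooth muscle markers, Rgs5 and Anpep rose. The summed level of a list, the log2 of the sum of its genes on the linear scale, was taken in each array. Such a sum is weighted to the genes with the highest values, such as Pdgfra in the fibroblast list and, where it was high, Flt1 in the endothelial list. For the fibroblast list it was 8.81 to 10.3 in HRAS and 6.93 to 10.8 in MYC cultures, for the endothelial list 8.10 to 9.50 and 7.76 to 8.0, and for the pericyte and smooth muscle list 8.46 to 9.23 and 7.94 to 9.12. Among the 7 microglial markers Cd68 rose (6.86 to 11.21 against 5.62 to 6.79) and Itgam fell. Within the HRAS cultures, replicate 5 had the highest Pecam1 (7.50 against 4.81 to 5.13), Anpep (8.20) and Cd68 (11.21). It also had the lowest Kdr (4.89) and Csf1r (4.18). Of the 7 neural stem markers Nes and Sox9 rose and Prom1 and Fabp7 fell, while 6 of 7 neuronal markers were lower in HRAS. Their part in the collagen differences was not tested.

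**Figure D3:**
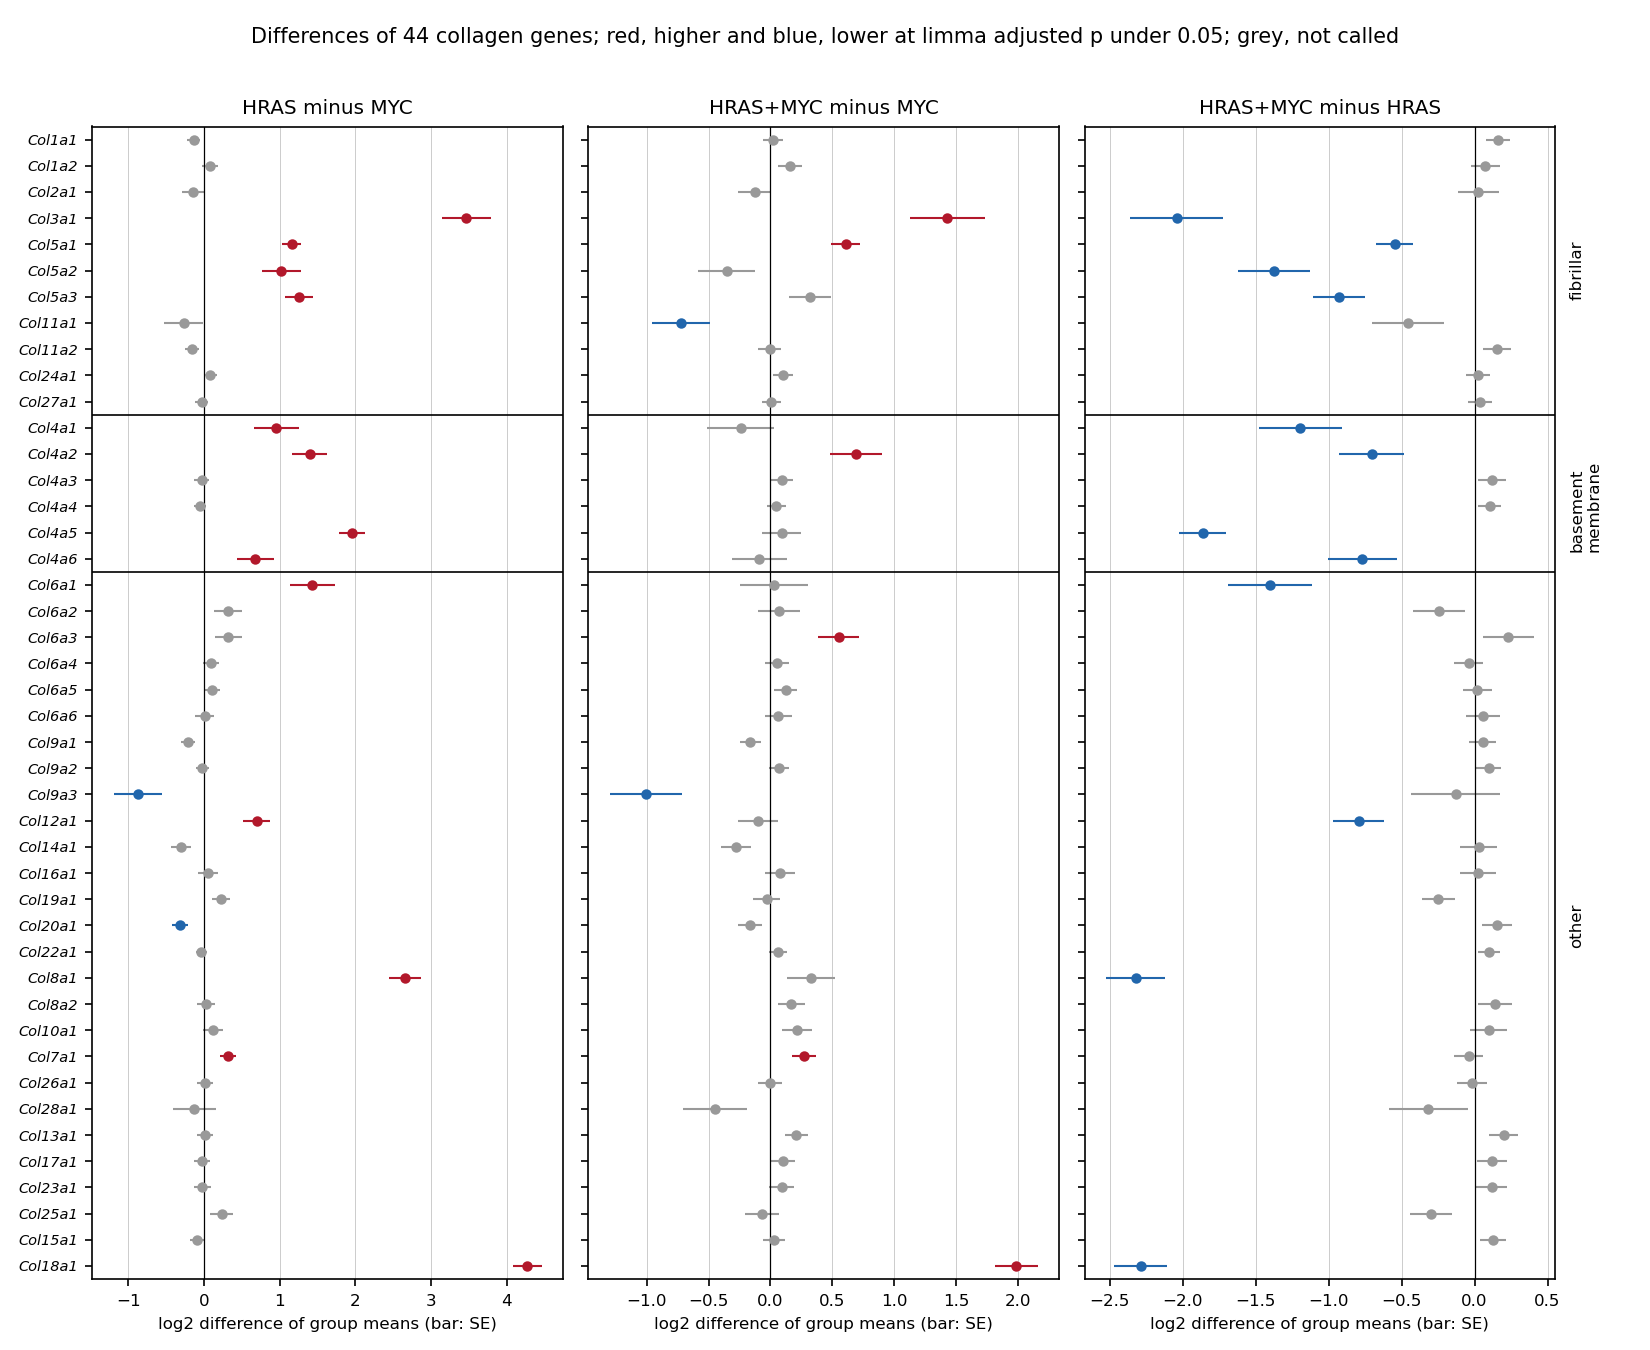
Log2 differences of group means with their standard errors for the 44 collagen genes in 3 comparisons, ordered by class, with red for genes that were higher, blue for genes that were lower and grey for genes that did not pass; the horizontal scales differ between panels. In the first panel 13 genes are red and 2 blue, in the middle panel 6 and 2, and in the last panel 0 and 12.

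In cultures given HRAS and MYC together, Col18a1 and Col3a1 were above the MYC cultures and below the HRAS gliomas, whereas Col8a1, Col4a5, Col6a1, Col5a2 and Col12a1 lay near the MYC level. Against MYC alone, 6 collagen genes were higher (15.8% of all genes were called higher) and 2 were lower (18.4%). With arrays centred on their medians it was 10 and 2, but the median difference of all genes then moved from 0.03 to 0.14. Against HRAS alone, 0 were higher (11.7% of all genes) and 12 were lower (13.0%), which were 4 of 11 fibrillar, 4 of 6 type IV and 4 of 27 other genes. Both comparisons use the same HRAS+MYC arrays, so they are not independent of each other. The class median against HRAS was -0.74 for the type IV chains, 0.02 for the fibrillar and 0.02 for the others, beside 0.05 over all genes.

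Col18a1 was 7.90, 7.98, 8.21, 8.59, 8.66, 8.67 and 8.34 in the HRAS+MYC cultures. This range overlapped neither the HRAS nor the MYC cultures. It was 1.98 ± 0.174 above MYC (3.96-fold, adjusted p = 5.98e-10) and 2.29 below HRAS (difference -2.29 ± 0.183, adjusted p = 7.09e-10). Col3a1 was 7.36, 7.99, 7.39, 8.13, 6.94, 7.07 and 8.03. It overlapped MYC replicate 5 below and HRAS replicate 2 above, and differed from MYC by 1.43 ± 0.303 (adjusted p = 0.00045) and from HRAS by -2.04 ± 0.319 (adjusted p = 2.36e-05). Col5a1, at 7.07 to 7.27, was 0.61 ± 0.119 above MYC and 0.55 below HRAS (-0.55 ± 0.125), and both differences passed.

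For the chains that did not keep an intermediate level, the HRAS+MYC cultures were compared with HRAS. Col8a1 was 5.38 to 5.74 with a median of 5.55, and the difference was -2.32 ± 0.204 (adjusted p = 3.42e-09). Col4a5 was 5.94 to 6.52 (-1.86 ± 0.163, adjusted p = 3.42e-09), Col6a1 was 6.44 to 7.07 (-1.40 ± 0.286, adjusted p = 0.000547), and Col5a2 was 4.98 to 5.33 (-1.38 ± 0.246, adjusted p = 0.000124). None of these 4 genes overlapped with the HRAS cultures, and their differences from MYC, between -0.35 and 0.33, did not pass. Col4a1, at 7.02 to 7.67, was 1.19 below HRAS (-1.19 ± 0.285, adjusted p = 0.00245) and differed from MYC by -0.24 ± 0.271 (adjusted p = 0.534).

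Col4a2, the gene paired with Col4a1, stayed 0.69 ± 0.212 above MYC (adjusted p = 0.0119) with values of 7.12 to 7.79. Its fall against HRAS, -0.70 ± 0.223 (adjusted p = 0.0206), was lost without HRAS replicate 1 (adjusted p = 0.0719), 2 (0.0576) or 3 (0.0566). Col4a6 (-0.77 ± 0.236) lost its call without HRAS replicate 1, 2 or 5 and with only these groups fitted (0.102). Col5a3 (-0.93 ± 0.179) fell in every setting. Col12a1 (-0.80 ± 0.173) fell in every setting that kept it. Its values were low (highest group mean 5.38), so the filter at a group mean of 6 removed it.

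A few genes moved against MYC alone. Col6a3, at 5.72 to 6.70, was 0.55 ± 0.166 above MYC (adjusted p = 0.0104), while Col6a1 and Col6a2 differed by 0.03 ± 0.272 and 0.07 ± 0.17. Col9a3 was 6.44 to 6.73 in HRAS+MYC and -1.01 ± 0.29 from MYC (adjusted p = 0.00746). Col11a1, a minor fibrillar chain that pairs with types II and V, was -0.73 ± 0.234 (adjusted p = 0.0166), a call lost without MYC replicate 1 (0.0549). Col7a1 (0.27 ± 0.095) lost its call without HRAS+MYC replicate 1 or 4 or MYC replicate 4 or 5, with adjusted p up to 0.154 over its settings. Col1a1 and Col1a2 had HRAS+MYC means of 6.56 and 6.42 and passed neither comparison, with differences of 0.02 and 0.16 from MYC and 0.16 and 0.07 from HRAS. With arrays centred on their medians, Col1a1 against HRAS (0.23, adjusted p = 0.0491) and Col1a2 against MYC (0.26, adjusted p = 0.0413) did pass. Among the marker genes, Cd68 (8.62 to 10.96), Flt1 (6.69 to 8.66), Anpep and the neuronal gene Stmn2 were higher than in MYC, and Pdgfra (5.97 to 7.10) was lower. The other 6 neuronal markers and the neural stem markers Olig2, Pax6, Prom1 and Fabp7 were lower than in MYC too. Against HRAS, Pi16 was higher and Rgs5, Anpep, Pdgfra, Nes, Pax6 and Sox9 were lower. The summed level in HRAS+MYC was 7.12 to 7.77 for the fibroblast list, 8.19 to 9.22 for the endothelial list and 8.19 to 8.74 for the pericyte and smooth muscle list. Their part in the result was not tested.

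With Ezh2 or Bmi1 added to MYC, few genes of any kind passed, and no collagen gene was among them. With Ezh2 added to MYC, 0 of 44 genes passed in limma (0.246% of all genes did), and 4 had an unadjusted p under 0.05, of which Col1a2 was the lowest (difference 0.30 ± 0.104, adjusted p = 0.265). With Bmi1 added to MYC, 0 passed in limma (0.150% of all genes), and 4 had an unadjusted p under 0.05, with Col22a1 the lowest (0.27 ± 0.0903, adjusted p = 0.233). Col18a1, at 6.44 in MYC+Ezh2 and 6.47 in MYC+Bmi1, and Col3a1, at 6.37 and 6.16, stayed within 0.24 of their MYC means.

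In gliomas, Bmi1 went with a change in 2 collagen genes, a count near the share of all genes that passed. Col5a2 was 8.12 and 8.07 in the HRAS+Bmi1 cultures, above every HRAS culture and the highest group of all, a difference of 1.54 ± 0.351 (adjusted p = 0.00743). Col4a5 was 6.65 and 6.90, below every HRAS culture (-1.21 ± 0.233, adjusted p = 0.0017). This was 1 gene higher (2.87% of all genes) and 1 lower (3.04%). With arrays centred on their medians it was 1 and 2, and the median difference of all genes moved from -0.006 to -0.089. Col3a1, next to Col5a2 in the genome, was 9.47 and 8.46 and inside the HRAS range. Neither call held without HRAS+Bmi1 replicate 1 (adjusted p = 0.145 for Col5a2 and 0.0993 for Col4a5), Col5a2 also lost it without replicate 2 (0.0974), and both were lost with only these groups fitted (0.179 and 0.114). Without HRAS replicate 3 the count was 4 in place of 2.

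The Bmi1 difference of Col5a2 in HRAS cells exceeded that in MYC cells by 1.72 ± 0.46 (interaction term, adjusted p = 0.0424), the only collagen gene among 44 to pass, where 2.43% of all genes passed in either direction. It fell short of the threshold in 12 of the settings tried, with adjusted p from 0.0539 to 0.262, each of which left out 1 array of the 4 groups or fitted those groups alone. Flt1 (9.57 and 9.54), Nes and Prom1 rose and Anpep and Cd68 (6.38 and 7.25) fell in HRAS+Bmi1 against HRAS. The summed level there was 9.87 to 9.90 for the endothelial list, 8.01 to 8.28 for the pericyte and smooth muscle list and 7.84 to 8.03 for the fibroblast list, and their part was not tested.

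When HRAS was added to MYC tumour cells, Col3a1 and Col18a1 rose, whereas Col6a3, Col5a2, Col8a1, Col6a1 and Col4a5 did not pass. Of 44 collagen genes, 6 were higher than in MYC (9.83% of all genes) and 0 lower (10.6%). With arrays centred on their medians it was 9 and 0, but the median difference of all genes then moved from 0.03 to 0.12. Col18a1 was 9.02 and 8.46, 2.39 ± 0.256 above MYC (adjusted p = 1.01e-07). Col3a1 was 8.60 in both cultures, 2.47 ± 0.445 above MYC (adjusted p = 0.000168). Both genes stood clear of all 6 MYC cultures. Col6a5, a rarer type VI chain, rose by 0.69 ± 0.134 (6.13 and 6.26 against 5.38 to 5.71).

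The other 3 rises were smaller. Col5a1 rose by 0.59 ± 0.174 and Col4a4 by 0.33 ± 0.109, and both lost the call without MYC then HRAS replicate 1 (adjusted p = 0.298 and 0.418) and with only these groups fitted (0.104 and 0.164). Col4a4 also lost it without MYC replicate 4 (0.055). Col6a6 rose by 0.50 ± 0.164 and lost it without either MYC then HRAS culture (0.298 and 0.0773), without MYC replicate 1 (0.0533) or 2 (0.0523), and with its probe sets averaged (0.0567). Without replicate 1, 3 of the 6 calls were left. Against the cultures given both oncogenes together, 0 collagen genes passed in limma (0.110% of all genes), and 4 had an unadjusted p under 0.05, among them Col3a1 with a difference of 1.04 ± 0.437 (adjusted p = 0.538). Flt1 (7.56 and 6.66), Cd68 (9.11 and 10.20), Ptprc and Pi16 rose against MYC, and 5 of 7 neuronal markers (Tubb3, Map2, Dcx, Syp and Elavl3) and the neural stem markers Pax6 and Prom1 fell. The summed level in MYC then HRAS was 7.53 to 7.55 for the fibroblast list, 8.33 to 8.73 for the endothelial list and 8.79 to 9.09 for the pericyte and smooth muscle list, and their part was not tested.

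When MYC was added to HRAS glioma cells, the collagen genes split. With arrays centred on their medians, 9 were higher than in HRAS and 4 lower, but the median difference of all genes then moved from 0.04 to 0.19. In the main fit, 4 were higher (6.30% of all genes) and 4 lower (6.21%). Col3a1, Col6a3, Col1a1 and Col16a1 rose, and Col8a1, Col4a5, Col5a3 and Col18a1 fell. The HRAS then MYC values rest on 2 arrays, and 5 of the 8 calls remained without replicate 1 and 4 without replicate 2.

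Col3a1 reached 11.67 and 11.79, the highest values of all 32 arrays, 2.13 ± 0.456 above HRAS (4.38-fold, adjusted p = 0.00227) and 4.17 ± 0.437 above HRAS+MYC (18.0-fold, adjusted p = 1.86e-07). The difference from HRAS was lost without HRAS then MYC replicate 2 (0.064) and with only these groups fitted (0.0755). Col6a3 was 9.26 and 7.90, where no other array exceeded 6.70, and rose by 2.64 ± 0.25 over HRAS (6.24-fold, adjusted p = 1.01e-07) and 2.41 ± 0.239 over HRAS+MYC (adjusted p = 6.94e-08). Col6a1 was 9.89 and 8.10 and Col6a2 7.91 and 6.94. Replicate 1 was the higher for all 3 type VI chains. Against HRAS, whose replicate 3 had 9.66 and 7.75, Col6a1 and Col6a2 did not pass.

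Col1a1 was 7.16 and 6.82, above every other array, 0.59 ± 0.119 above HRAS (adjusted p = 0.00134), a call lost without replicate 1 (0.11) and with only these groups fitted (0.0821). Col1a2 was 6.48 and 6.28 and did not pass. Col16a1, a chain found on fibril surfaces, was 7.30 and 7.27 and rose by 0.54 ± 0.178 (adjusted p = 0.0448), a call lost without either replicate, without HRAS replicate 1, 2, 3 or 5, and in 3 other settings (0.0554 to 0.24).

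Of the 4 genes that fell, Col8a1, Col4a5 and Col5a3 did not pass against HRAS+MYC, and Col18a1 was above it. Col8a1 was 5.83 and 5.61 (-2.14 ± 0.291, adjusted p = 1.70e-05), and Col4a5 was 6.61 and 6.16 (-1.60 ± 0.233, adjusted p = 3.82e-05). Both were below every HRAS culture. Col5a3 was 6.54 and 6.42 (-0.85 ± 0.255), a call lost without HRAS replicate 1 and without either HRAS then MYC replicate (0.0528 to 0.239). Col18a1 was 9.89 and 9.28, below HRAS by 1.04 (-1.04 ± 0.262, adjusted p = 0.00854), lost without replicate 2 (0.292), and above HRAS+MYC by 1.25 ± 0.251 (adjusted p = 0.00109), lost without replicate 1 (0.097).

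Markers moved in this group too. Pdgfrb was 7.71 and 6.63 against 5.07 to 6.69 in HRAS, and Lum was 4.48 and 3.55 against 2.88 to 3.23. Cdh5 was 5.75 and 5.88 against 4.69 to 5.16. Dpt was 3.47 and 3.48, and Dcn did not pass. Flt1 (5.74 and 5.61) and Cd68 (6.70 and 6.11) were lower than in HRAS, as were Rgs5, Anpep, Nes, Pax6, Sox9 and Stmn2. The summed fibroblast list was 7.80 to 8.08 against 8.81 to 10.3, and the summed pericyte list 8.66 to 9.24 against 8.46 to 9.23. Pdgfra, which weighs most in the fibroblast sum, was 7.47 and 7.16 against 8.56 to 10.22 and did not pass. The lower sum is therefore not a fall of the list as a whole, in which Lum rose. The part of such cells in the collagen result was not tested.

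The order of the oncogenes was compared directly. Only the sequential groups came from secondary tumours, so against HRAS+MYC the order and that further growth cannot be told apart. Against HRAS+MYC given together, HRAS then MYC had 8 collagen genes higher (6.89% of all genes) and 0 lower (5.17%). These were Col3a1, Col5a1, Col1a1, Col6a1, Col6a2, Col6a3, Col16a1 and Col18a1. Without HRAS then MYC replicate 1, the calls of Col3a1 and Col6a3 remained, and without replicate 2 all but Col5a1 and Col16a1 did. Col6a1 differed by 2.23 ± 0.392 (adjusted p = 0.000266, and 0.0951 without replicate 1) and Col6a2 by 0.87 ± 0.245 (0.0183, and 0.601 without it). Against MYC then HRAS, 4 were higher (1.58% of all genes), which were Col3a1 (3.13 ± 0.545, adjusted p = 0.000663), Col6a3 (2.39 ± 0.298, adjusted p = 8.12e-06), Col6a1 (1.90 ± 0.489, adjusted p = 0.0248) and Col1a1 (0.54 ± 0.143, adjusted p = 0.0294), and 0 were lower (1.70%). When only these 4 arrays were fitted, 1 of the 4 calls was left, that of Col3a1. Without HRAS then MYC replicate 1 or without MYC then HRAS replicate 2, 2 were left.

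**Figure D4:**
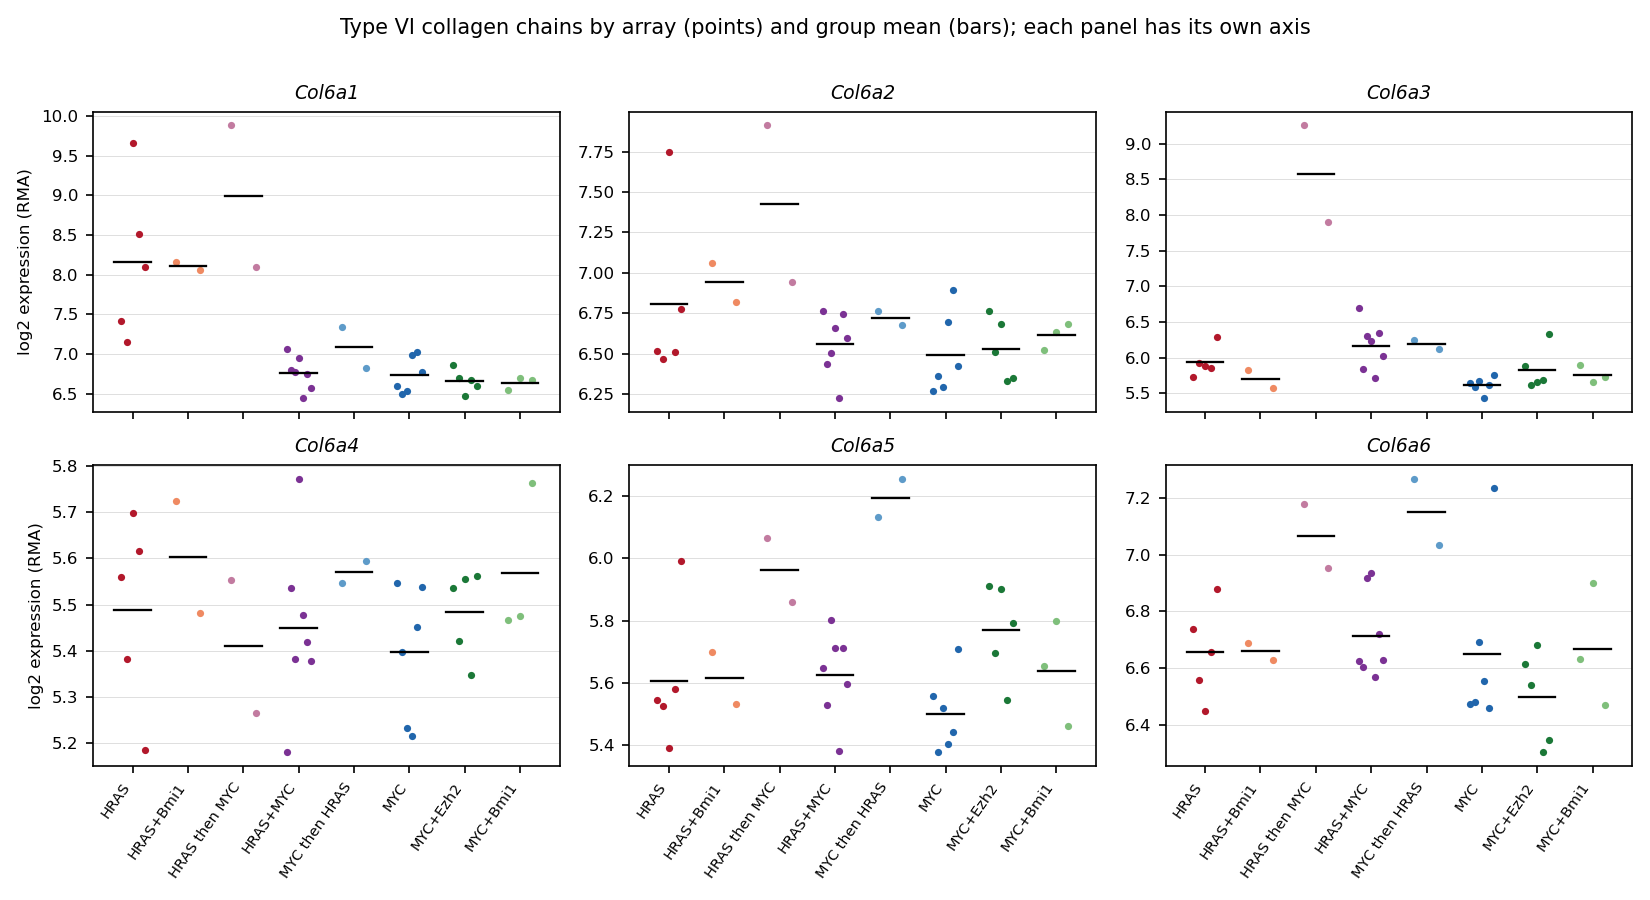
Log2 expression of the 6 type VI chains, with 1 point per array and a bar at each group mean, on a separate vertical axis for each gene. Col6a3 is high only in the 2 HRAS then MYC cultures (9.26 and 7.90, no other array above 6.70), while Col6a1 is also high in the HRAS and HRAS+Bmi1 cultures.

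Setting the groups in order of their means gave different orders for different chains. For Col18a1 the order was HRAS (10.62 ± 0.22, SD), HRAS+Bmi1 (10.06 ± 0.14), HRAS then MYC (9.59 ± 0.43), MYC then HRAS (8.74 ± 0.40), HRAS+MYC (8.34 ± 0.32), and then the 3 MYC groups at 6.35 to 6.47. Neighbouring HRAS and HRAS+Bmi1 did not pass (adjusted p = 0.248). Neither did HRAS then MYC and MYC then HRAS, nor MYC then HRAS and HRAS+MYC, and the 3 MYC groups lay within their spread. HRAS+Bmi1 and HRAS then MYC were not compared. For Col3a1 the order was HRAS then MYC (11.73 ± 0.09), HRAS (9.60 ± 0.95), HRAS+Bmi1 (8.96 ± 0.71), MYC then HRAS (8.60), HRAS+MYC (7.56 ± 0.49), MYC+Ezh2 (6.37 ± 0.52), MYC+Bmi1 (6.16 ± 0.10) and MYC (6.13 ± 0.49). HRAS and HRAS+Bmi1 did not pass for Col3a1 either (adjusted p = 0.537), nor did MYC then HRAS against HRAS+MYC. HRAS+Bmi1 and MYC then HRAS were not compared. For both genes, the mean of each group with HRAS lay above those of the 3 groups without it. For Col8a1, by contrast, HRAS (7.86 ± 0.75) and HRAS+Bmi1 (7.06 ± 0.06) stood above the other 6 groups, whose means lay between 5.21 and 5.72.

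The genes that act on collagen were counted in 4 lists. The first holds the enzymes and chaperones that make the chains, 19 of 20 measured. In HRAS against MYC, 9 rose (15.4% of all genes did) and 0 fell (18.0%), and 8 of the 9 calls passed in every setting, all but Mia3. P4ha2, a catalytic subunit of the prolyl 4-hydroxylase that stabilises the helix, was 9.25 to 10.24 in HRAS and 4.79 to 7.79 in MYC cultures (3.55 ± 0.38, adjusted p = 2.76e-08). Plod2, the lysyl hydroxylase of the chain ends, was 10.37 to 10.82 against 7.52 to 8.55 (2.48 ± 0.25, adjusted p = 8.20e-09). Neither gene's groups overlapped. Serpinh1, which encodes HSP47, had means of 9.27 and 7.80 but spread from 5.57 to 9.59 in the MYC cultures and did not pass. In HRAS+MYC, 6 makers were above MYC (15.8% of all genes) and 2 below (18.4%), of which Plod3, P3h2 and Serpinh1 lost the call in some settings. Against HRAS 1 was above (11.7%) and 9 below (13.0%), among them P4ha2 (-1.46) and Plod2 (-1.18). The calls of P4ha3, P4hb and Colgalt2 against HRAS were lost in some settings.

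The second list holds proteins that trim, cross-link and order fibrils, 17 of 19 measured. In HRAS against MYC, 9 rose (15.4% of all genes) and 0 fell (18.0%). Pcolce, the enhancer of procollagen C-proteinase, was 9.83 to 11.11 against 5.72 to 6.32 (4.36 ± 0.30, adjusted p = 8.18e-12). Sparc, a collagen-binding matrix protein, was 12.14 to 13.16 against 5.75 to 9.63 (5.19 ± 0.55, adjusted p = 2.51e-08). Pxdn, which cross-links type IV collagen, rose by 2.39. Lox, the founding lysyl oxidase, had means of 4.34 and 4.14 and did not pass. In HRAS+MYC, 6 were above MYC (15.8% of all genes) and 1 below (18.4%), of which Adamts14 lost the call in 6 settings. Against HRAS 2 were above (11.7%) and 5 below (13.0%). The lysyl oxidase relatives went opposite ways there, with Loxl3 at -2.19 and Loxl4 at 0.83 against HRAS, the latter lost without HRAS replicate 1, 2 or 5 and with only these groups fitted (adjusted p = 0.0546 to 0.112).

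Bgn, a small proteoglycan that binds fibrils, followed the HRAS then MYC cultures. It was 10.81 and 8.03 there, against 4.56 to 7.46 in HRAS and 4.51 to 5.33 in HRAS+MYC. Replicate 1 was again the higher, and the rise over HRAS of 3.46 (adjusted p = 0.00774) was lost without it (0.322). In the MYC cultures Bgn ranged from 4.76 to 9.45.

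All 8 receptors of collagen on the third list were measured. In HRAS against MYC, 5 rose (15.4% of all genes) and 0 fell (18.0%), among them Itgb1 (1.23), the shared beta-1 integrin subunit, and Mrc2 (1.79), an endocytic receptor that takes up collagen. Itga2 (1.56) rose too. Itga10 lost its call without MYC replicates 4 and 5 together (adjusted p = 0.0505). Itga1 (1.69) rose but lost the call without HRAS replicate 3 or 5, without MYC replicates 4 and 5 together and with only these groups fitted (adjusted p = 0.054 to 0.105). Itga11 (-0.17) and the kinase receptors Ddr1 (-0.32) and Ddr2 (0.31) did not pass. In HRAS+MYC, 4 receptors were above MYC (15.8% of all genes) and 1, Ddr1 (-0.88), below (18.4%). Of the 4, Itga2 lost the call in 10 settings and Itga1 and Itga10 without MYC replicates 4 and 5 together. Against HRAS, Itga11 (0.28) was above (11.7% of all genes) and Itgb1 (-0.79) and Mrc2 (-1.88) were below (13.0%).

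The fourth list holds 10 proteases and their inhibitors. In HRAS against MYC, 5 rose (15.4% of all genes) and 0 fell (18.0%). The calls of Ctsk, a cathepsin that degrades collagen, and of the inhibitor Timp3 were lost in 6 and 8 settings, with adjusted p up to 0.154 and 0.11. Mmp14, a membrane-bound collagenase, was 8.96 to 11.46 against 5.58 to 7.13 (4.20 ± 0.36, adjusted p = 4.09e-10). The inhibitors Timp1 and Timp2 rose by 5.62 ± 0.26 and 4.40 ± 0.37. In HRAS+MYC, 6 genes were above MYC (15.8% of all genes) and 1 below (18.4%), and 3 were above HRAS (11.7%) and 4 below (13.0%). The calls of Mmp2, below HRAS, and of Mmp9, above it, were lost in 3 settings each. Mmp13, a collagenase of fibrillar collagen, was 5.41 to 7.95 in HRAS+MYC against 4.63 to 5.13 in HRAS and 4.72 to 5.09 in MYC (1.89 above HRAS, adjusted p = 7.35e-06). Timp1 stayed high in HRAS+MYC (10.13 to 10.90), and Mmp14 (-2.73) and Timp2 (-2.15) fell against HRAS.

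**Figure D5:**
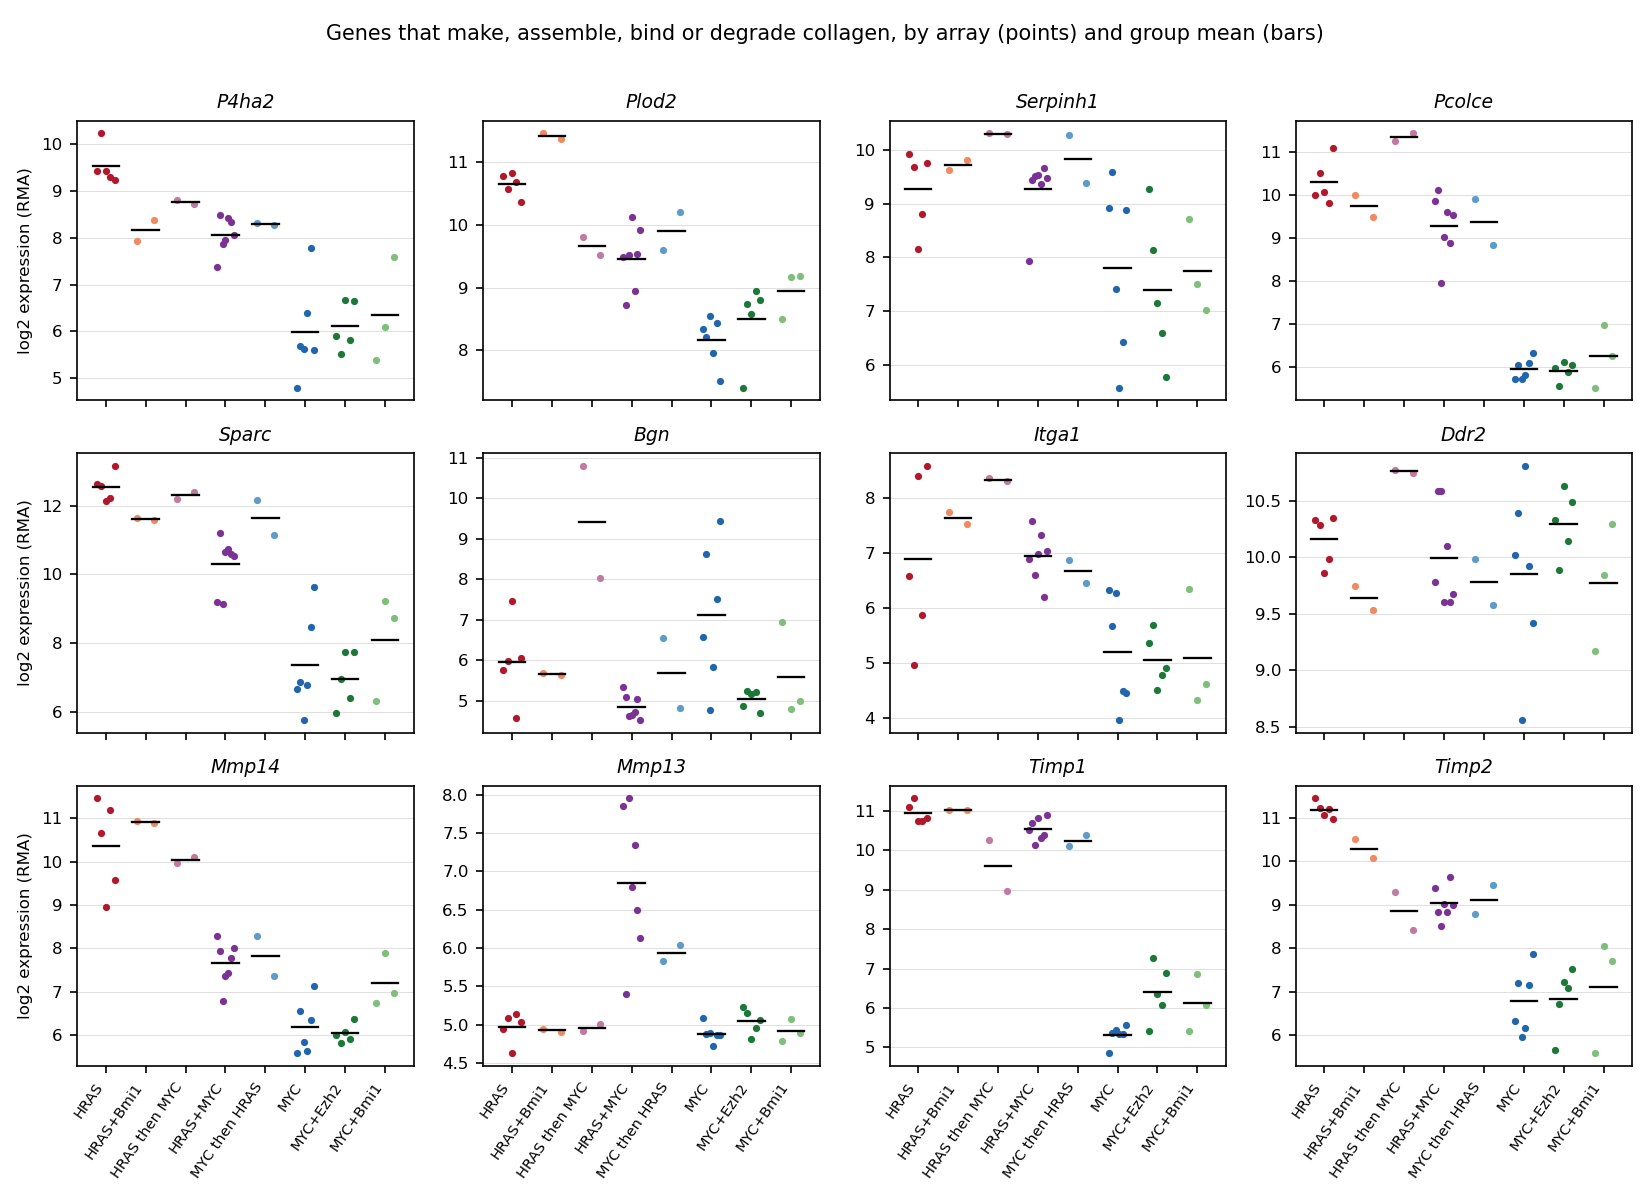
Log2 expression of 12 genes that make, assemble, bind or degrade collagen, with 1 point per array and a bar at each group mean, on a separate vertical axis for each gene. P4ha2, Plod2, Pcolce, Sparc, Timp1 and Timp2 have their lowest means in the groups given MYC without HRAS, and Mmp13 is raised in the 7 HRAS+MYC cultures and, less far, in MYC then HRAS. The Mmp13 call of MYC then HRAS against MYC was lost in 10 settings, among them leaving out any 1 MYC array.

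In the sequential groups the same lists were counted. Against MYC, MYC then HRAS had 5 of 19 makers higher and 1 lower, 5 of 17 assembly genes higher, 1 of 8 receptors and 5 of 10 protease genes higher (9.83% of all genes were higher and 10.6% lower). Pcolce (3.43), Sparc (4.29), Pxdn (2.29) and Timp1 (4.92) were among them and remained in every setting tried, as 5 of the 17 calls did. Against HRAS, HRAS then MYC had 1 maker higher and 2 lower, 3 assembly genes higher and 4 lower, and 3 receptors and 2 protease genes lower with 0 higher (6.30% of all genes were higher and 6.21% lower). These calls rested on 2 arrays, and each of the 15 was lost when at least 1 of them was left out.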

How the data were processed

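The RNA came from 32 neurosphere cultures, each on 1 Affymetrix Mouse Gene 1.0 ST array. The deposited values are log2 expression, summarised and normalized by the authors. The submitters' processing notes name RMA and Affymetrix Expression Console 1.0. RMA sets all arrays to 1 distribution, so a shift of all genes cannot be seen. Of 35557 probe sets, 21789 have 1 symbol in the platform annotation, 1621 have several and 12147 are not listed. The probe set with the highest mean stood for each of 19938 genes, and 999 genes, Col6a5 and Col6a6 among them, had more than 1. Detection values were not used here, and the number of arrays limits the precision.

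One limma 3.58.1 model (R 4.3.3) held the 8 group means of all 32 arrays, with 11 pairwise comparisons and 1 interaction term. P-values were 2-sided and adjusted by Benjamini-Hochberg over 19938 genes, and a gene passed under 0.05. The procedure was tested on simulated data.

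The collagen genes, pathway lists and markers were chosen with earlier results of these data known. Full statistics go to collagen genes that passed with a log2 difference of at least 1, by size and up to 8 each way (HRAS against MYC and both HRAS+MYC comparisons) or 4 (elsewhere), and to Col1a1, Col1a2, Col3a1, Col4a1, Col4a2 and Col6a1 to Col6a3. Other genes given with statistics, and the markers named, were chosen after their values were seen. Of 57 pathway genes fixed, 54 were measured. Alternatives were a fit of only the groups compared, trend and robust eBayes, the mean of probe sets, a filter at a group mean of 6, median centring, the replicate number as a block, leaving out each array, and leaving out MYC replicates 4 and 5.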

Additional observations from a re-analysis of the deposited data

Results flagged for a closer look

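In 4 cases 1 array stood apart from the rest of its group by Dixon's test. Col3a1 was 7.09 in MYC replicate 5, where the other MYC cultures were 5.72 to 6.16. Col4a5 was 8.91 in HRAS replicate 4 (others 7.61 to 7.92), Col6a2 was 7.75 in HRAS replicate 3 (others 6.47 to 6.78), and Col5a1 was 7.15 in MYC+Ezh2 replicate 1 (others 6.58 to 6.72). These were 4 of 60 cases tested over 15 genes (6.67%), where chance gives about 5%.

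The Bmi1 difference of Col5a2 was larger in HRAS than in MYC cultures by 1.72 (interaction term in limma, adjusted p = 0.0424, with 0.0539 to 0.262 in the 12 settings that lost the call). Col5a2 was higher in 2 of 2 HRAS+Bmi1 cultures than in any HRAS culture.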

How the results depend on the processing

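Of 52 differences of named collagen genes, 39 passed, and none of the 39 changed sign in any alternative. Of the rest, 3 did when 1 array was left out, Col1a1 and Col6a1 in HRAS+MYC against MYC and Col1a2 in HRAS+MYC against HRAS. The low-value filter, the mean of probe sets, trend and robust eBayes, and the replicate block changed the call of none of the 52. With only the groups compared in the fit, the count of collagen genes that passed went from 15 to 8 (8 higher, 0 lower) for HRAS against MYC, from 2 to 0 for HRAS+Bmi1 against HRAS, from 8 to 4 (1 higher, 3 lower) for HRAS then MYC against HRAS, from 4 to 1 for HRAS then MYC against MYC then HRAS, and from 1 to 0 for the Bmi1 interaction. Fewer arrays then estimate the spread. The filter, which keeps 12311 genes and 33 collagen genes, gave 2 for the interaction. Median centring moved the median difference of all genes by up to 0.148, and the share of all genes called was not counted with it. It gave 12 (10 higher, 2 lower) in place of 8 for HRAS+MYC against MYC. For MYC then HRAS against MYC it gave 9 in place of 6. For HRAS then MYC against HRAS it gave 13 (9 higher, 4 lower) in place of 8. Col1a1 against HRAS and Col1a2 against MYC then passed in HRAS+MYC.

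Leaving out 1 array at a time gave 12 to 16 for HRAS against MYC, 7 to 9 for HRAS+MYC against MYC, 10 to 12 for HRAS+MYC against HRAS, 0 to 4 for HRAS+Bmi1 against HRAS, 3 to 8 for MYC then HRAS against MYC (8 without MYC replicate 6), 5 to 10 for HRAS then MYC against HRAS, 2 to 8 against HRAS+MYC, 2 to 4 against MYC then HRAS, and 0 to 2 for the interaction. It gave 0 for MYC+Ezh2 and MYC+Bmi1 against MYC and for MYC then HRAS against HRAS+MYC. Where it left 1 array in a group, that array was taken to vary like the other groups.

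With the replicate number as a block, the counts were 15, 8 and 12 for the first 3 comparisons, as without it, and 9 (3 higher, 6 lower) in place of 8 for HRAS then MYC against HRAS. In their deviations from the group mean, at most 2 same-numbered pairs of a comparison correlated over 0.1. The highest was 0.343, between MYC+Ezh2 and MYC. In a group of 2 arrays the deviations mirror each other, so the check cannot decide there. The labels do not say that the numbers pair the samples, and the main fit did not pair them. With 2 arrays in 3 of the groups, small differences there were not detectable.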
